A study of Mus musculus with 44 samples.

Results

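Gastric organoid lines made to express CDX2 were compared with gastric organoid lines made to express HNF4A, using the RNA-seq libraries of lines 1 to 3 of each kind. These 6 libraries were chosen by their titles, out of 44 samples in the series and 20 with a column in the organoid count table. The study used lentiviral vectors to make isogenic mouse stomach organoid lines that carry either factor, and examined their chromatin and RNA. Lines carrying GFP, a neutral product, were its controls, and unmodified small intestine organoids served as a further reference. All lines were of the C57BL/6 strain, and every gastric line, controls included, had been transduced with a lentivirus. The 3 GFP lines and the 2 small intestine organoid libraries are used below as levels beside the comparison and are not tested against it. The tissue tag and title of each of the 6 libraries gave gastric organoids while the source field named small intestine organoids, and the tag and title were followed. The labels give no promoter or transgene species for the vectors and do not say whether numbered lines came from separate animals or cultures. The p-values measure the spread left among the CDX2, HNF4A and GFP line libraries after differences between line numbers are removed, not the full spread between lines. That remaining spread may therefore be in part technical.

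CDX2 is a homeodomain transcription factor of the developing and adult intestine that is absent from the normal stomach and appears in intestinal metaplasia, the replacement of gastric by intestinal-type epithelium. HNF4A is a nuclear receptor that is active in liver, intestine and stomach and drives genes of lipid transport, plasma protein secretion and xenobiotic metabolism. In enterocytes both factors act at many of the same genes, and the comparison asks which genes differ when one or the other is supplied to stomach epithelium.

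RNA was taken from organoids freed from matrigel, and polyA libraries were sequenced. Deposited read counts summed to between 6180498 reads in CDX2 line 3 and 10338120 in CDX2 line 1 over the 6 libraries. Levels are given as CPM, read counts scaled to the size of the library and, by the TMM method, to its RNA composition. Epithelial markers (Epcam, Cdh1 and keratins) summed to 7830 to 15000 CPM in the CDX2 lines and 7530 to 11100 CPM in the HNF4A lines. The stomach factor Nkx6-3 was at 65.1 CPM or more in each of the 6 libraries and at 0.11 CPM or less in small intestine organoids. The 12 listed stomach factors summed to 757 to 995 CPM in the CDX2 lines and 909 to 1220 CPM in the HNF4A lines. Small intestine organoids had 333 and 611 CPM, so the list as a whole went with the gastric label. Not every member did: Nkx6-2 (17.8 and 13.9 CPM) and Onecut2 (63.0 and 229 CPM) in those organoids overlapped the 6 libraries. Libraries with the same line number deviated together from their group means. Over 12289 tested genes their correlation was 0.36 to 0.768 for the 9 same-number pairs of gastric lines and -0.616 to 0.112 for different numbers. Deviations within a group cancel out, so positive same-number values push the others down. The lines were numbered 1 to 3 in each group and taken as paired by number, so line number was a block in the test. In bulk RNA, fewer cells of a type and less RNA per cell cannot be told apart.

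The targeted genes came first. Cdx2 (chr5:147300900-147307249, GRCm38) stood at 200, 288 and 62.0 CPM in CDX2 lines 1, 2 and 3 and at 50.6, 29.1 and 22.6 CPM in HNF4A lines 1, 2 and 3. Every CDX2 line was above every HNF4A line, and line 3 was the lowest of both groups. The difference was 2.24 ± 0.36 on the log2 scale (estimate ± SE, 3 libraries a group; adjusted p = 0.0402, edgeR quasi-likelihood test). The call was lost without CDX2 line 1, any HNF4A library or GFP line 2 (adjusted p up to 0.151), with the 6 libraries alone (0.0758) and with no filter on low counts (0.0626). GFP lines held 3.18 to 7.44 CPM of Cdx2 and small intestine organoids 282 and 272 CPM, so the HNF4A lines carried more Cdx2 reads than any GFP line. Reads of the transgene and of the endogenous gene cannot be told apart in these counts.

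Hnf4a (chr2:163506811-163572907) was read at 440, 197 and 186 CPM in CDX2 lines 1 to 3 and at 502, 399 and 289 CPM in HNF4A lines 1 to 3. The groups overlapped, because CDX2 line 1 was above HNF4A lines 2 and 3, although each HNF4A line was above the CDX2 line of its own number. The log2 difference of -0.60 ± 0.17 did not pass the test (adjusted p = 0.142). Of 20 alternative settings of the fit, only DESeq2 called it (adjusted p = 0.0289). Hnf4a in the GFP lines was 95.6 to 158 CPM, below all 6 libraries, and small intestine organoids held 717 and 885 CPM.

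**Figure D1:**
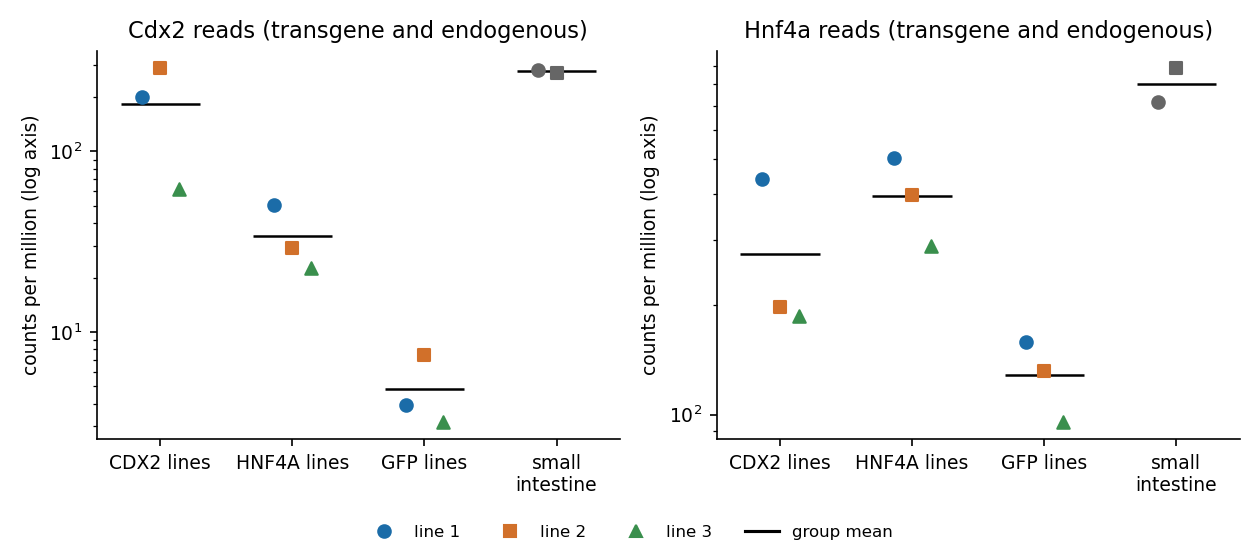
Normalised read counts (CPM, log axis) of Cdx2 and Hnf4a in each library, with colour and shape for the line number and a bar for the group mean. The CDX2 lines sit between 62.0 and 288 CPM of Cdx2, above the HNF4A lines, whereas the groups overlap for Hnf4a.

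Of 12289 genes tested, 169 were called at an adjusted p under 0.05 (1.38% of those tested). Of these, 79 were higher in the CDX2 lines (0.643%) and 90 were lower (0.732%). The median log2 difference over all tested genes was -0.002. Among the called genes, 60 of the higher and 65 of the lower differed by more than 2-fold, and 36 and 40 by more than 4-fold. For 101 of the 169 the 3 CDX2 and 3 HNF4A libraries did not overlap, beside 8.22% of all tested genes. All 3 numbered line pairs differed in the same direction for 168 of the 169. Genes were called in these same libraries by a test blocked on line number. Both counts therefore follow in part from the selection and are no separate support.

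The number of calls rested on the block and on single libraries. Without the replicate block only 1 gene was called, B4galnt2 (adjusted p = 0.0475), while all 169 kept their sign and 130 had an unadjusted p under 0.05. Leaving out an HNF4A library gave 20 calls without line 1, 11 without line 2 and 35 without line 3. Leaving out a CDX2 library gave 75, 173 and 406 calls for lines 1, 2 and 3. Without GFP line 1, 2 or 3, which enter the fit only for its spread and line terms, the counts were 261, 77 and 202. All 169 kept their sign in these 9 fits, but only 9 genes were called in every one of them: Il5ra, Gabrp, Isx, Naip1, B4galnt2 and Cbr2, higher in the CDX2 lines, and Chdh, Clps and Bpifb1, lower. Of these, only Il5ra, Gabrp, Isx and Cbr2 were also called whichever whole line was left out of all 3 groups. Naip1, B4galnt2, Chdh, Clps and Bpifb1 each lost their call without 1 line. Cbr2, Chdh and Clps are named here after their values were seen. Of the 44 called genes described below by rule, 6 were called in all 9 fits, and the other 38 each lost their call without at least one HNF4A library.

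**Figure D2:**
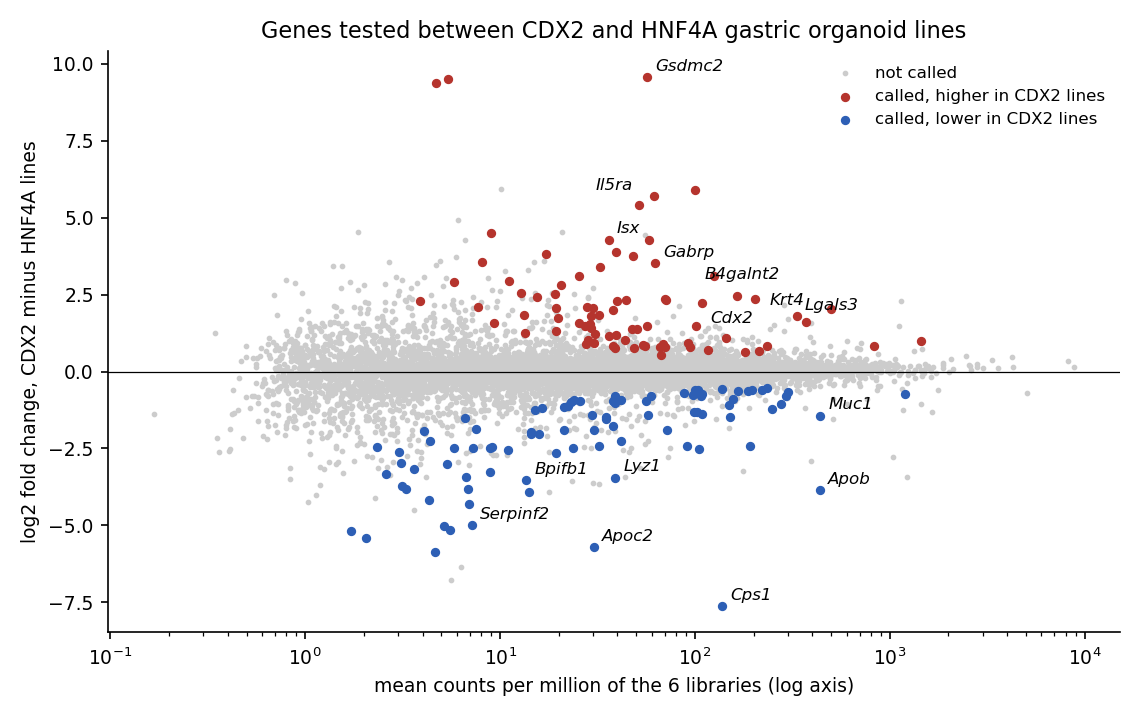
Each tested gene by its mean CPM over the 6 libraries (log axis) and its fitted log2 difference, CDX2 minus HNF4A lines. Called genes are coloured, 79 higher in the CDX2 lines and 90 lower, and the named ones include Isx, B4galnt2 and Lgals3 above the line and Cps1, Apob and Muc1 below it.

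Genes highest in the CDX2 lines relative to the HNF4A lines included an intestinal homeobox factor, gasdermins, an innate immune sensor and receptor subunits. The 12 described here were those with the largest fitted difference among called genes whose libraries did not overlap and whose mean reached 5 CPM in the higher group. Isx (chr8:74873174-74893506) encodes an intestine-specific homeobox factor that represses genes of carotenoid uptake and cleavage. Its level was 104, 71.5 and 30.3 CPM in CDX2 lines 1 to 3 and 4.41, 4.64 and 1.36 CPM in HNF4A lines 1 to 3. It was listed with no read in any GFP line and at 125 and 136 CPM in small intestine organoids. All CDX2 lines were above all HNF4A lines, by 4.29 ± 0.20 on the log2 scale (adjusted p = 0.00188).

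Gasdermin C genes encode pore-forming proteins of the intestinal epithelium. Gsdmc2 was at 287, 44.7 and 7.10 CPM in CDX2 lines 1 to 3 and at 0.116, 0 and 0.272 CPM in HNF4A lines 1 to 3, which is 3 reads in all. The ratio of reads pooled over each group and scaled to depth was 1100, with a 95% counting interval of 376 to 5330 (adjusted p = 0.0102). Gsdmc3 was at 24.1, 6.39 and 1.89 CPM in the CDX2 lines and had no read in the HNF4A lines, which makes it at least 103-fold higher against 3 reads over the group (adjusted p = 0.0395). DESeq2 did not call Gsdmc3 (adjusted p = 0.27). Both were highest in CDX2 line 1 and lowest in line 3, and neither exceeded 0.425 CPM in GFP lines or 0.186 CPM in small intestine organoids. These are close paralogs, so reads may have been divided between them. Naip1, an intracellular sensor of bacterial secretion proteins from another family of close paralogs, was at 202, 47.0 and 23.7 CPM against 7.90, 6.00 and 2.31 CPM, a log2 difference of 3.75 ± 0.36 (adjusted p = 0.00856). GFP lines held at most 0.106 CPM of it and small intestine organoids 53.4 and 222 CPM.

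Receptor and signalling genes made up much of the rest. Il5ra, the alpha subunit of the interleukin 5 receptor, was at 307, 51.5 and 5.99 CPM in CDX2 lines 1 to 3 and 5.92, 0.679 and 0.272 CPM in HNF4A lines 1 to 3. Each CDX2 line was far above the HNF4A line of its number, by 5.71 ± 0.38 in the fit (adjusted p = 0.00188), although CDX2 line 3 only just cleared HNF4A line 1. Gabrp, the pi subunit of the GABA-A receptor, was at 195, 118 and 28.1 CPM against 22.5, 7.36 and 2.58 CPM, a log2 difference of 3.52 ± 0.22 (adjusted p = 0.00121). Its GFP levels of 54.7, 30.1 and 5.02 CPM lay between the 2 kinds of line for each number, and small intestine organoids had at most 0.219 CPM. Adcyap1, which encodes the neuropeptide PACAP, was at 10.8, 15.1 and 2.21 CPM and had no read in the HNF4A lines, at least 82.7-fold (adjusted p = 0.0145). Rasa4, a Ras GTPase-activating protein, was at 150, 48.5 and 20.2 CPM against 13.1, 2.94 and 0.680 CPM, a log2 difference of 3.89 ± 0.40 (adjusted p = 0.0102).

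The remaining genes of this set covered other functions. Tbx3, a T-box factor, differed from the others in being highest in CDX2 line 3, with 11.4, 3.50 and 37.1 CPM against 0.929, 0 and 1.22 CPM (log2 difference 4.51 ± 0.56, adjusted p = 0.0305). It had no read in GFP lines and 91.0 and 61.2 CPM in small intestine organoids. Nat8l, the N-acetylaspartate synthase, was at 237, 72.1 and 24.0 CPM against 6.39, 5.09 and 2.58 CPM (4.26 ± 0.71, adjusted p = 0.0473). S100a7a, a calcium-binding S100 protein, was at 59.7, 24.2 and 11.7 CPM against 5.57, 1.36 and 0.544 CPM (3.82 ± 0.44, adjusted p = 0.0115). Mgat4c, an N-acetylglucosaminyltransferase, was at 124, 33.8 and 21.1 CPM against 11.4, 2.26 and 2.86 CPM (3.41 ± 0.49, adjusted p = 0.0312). Of these 12 genes, Il5ra, Isx, Naip1 and Gabrp were called in all 9 fits that left out 1 library. The other 8 lost their call in at least one, always including an HNF4A library, with adjusted p up to 0.243. Tbx3 was at 5.15 and 5.17 without line 1 of CDX2 or HNF4A, Naip1 at 3.10 and 3.15 without the same libraries, Nat8l at 3.20 without CDX2 line 1 and Rasa4 at 4.49 without HNF4A line 1. Nat8l was not called with no filter on low counts (adjusted p = 0.0914).

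Genes lowest in the CDX2 lines relative to the HNF4A lines included lipoprotein, urea cycle and cytochrome P450 genes. Cps1 (chr1:67122426-67231267) encodes carbamoyl phosphate synthetase, the entry enzyme of the urea cycle. It was at 0, 3.62 and 0.946 CPM in CDX2 lines 1 to 3 and at 332, 450 and 43.5 CPM in HNF4A lines 1 to 3, a log2 difference of -7.62 ± 0.70 (adjusted p = 0.0102). GFP lines had 0.533 CPM or less and small intestine organoids 183 and 737 CPM, so the HNF4A lines stood apart from both other kinds of gastric line. This call was lost without HNF4A line 2 (adjusted p = 0.117), and the difference was -6.62 without CDX2 line 1, -8.94 without CDX2 line 2 and -6.91 without HNF4A line 1.

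Lipoprotein genes showed the same order. Apob (chr12:7977629-8016839), the structural protein of chylomicrons and very low density lipoprotein, was at 60.7, 28.6 and 87.8 CPM in CDX2 lines 1 to 3 and 826, 636 and 986 CPM in HNF4A lines 1 to 3. The groups were far apart, with a fitted log2 difference of -3.86 ± 0.46 (adjusted p = 0.0198). GFP lines, at 25.3, 65.7 and 97.2 CPM, covered the range of the CDX2 lines, and small intestine organoids had 82.6 and 315 CPM. Apoc2, the lipoprotein lipase activator, was at 4.02, 0 and 0 CPM against 118, 54.1 and 5.03 CPM (-5.72 ± 0.65, adjusted p = 0.0147). Its GFP level was at most 0.106 CPM, and HNF4A line 3 was only slightly above CDX2 line 1. DESeq2 did not call Apoc2 (adjusted p = 0.0652), and its fitted log2 difference was -11.12 without CDX2 line 1, -4.95 without CDX2 line 2 and -8.28 without HNF4A line 1.

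Xenobiotic and retinoid enzymes followed. Cyp3a25, a cytochrome P450, was at 0, 1.08 and 0 CPM in the CDX2 lines and 13.0, 9.85 and 9.25 CPM in the HNF4A lines (log2 difference -5.14 ± 0.92, adjusted p = 0.0462). All its reads in the CDX2 lines came from line 2, and the difference was -4.22 without CDX2 line 1, -9.56 without CDX2 line 2, -4.32 without HNF4A line 1 and -8.73 without HNF4A line 2. It was not called with the 6 libraries alone (adjusted p = 0.1). Aadac, an arylacetamide deacetylase, was at 0.101, 0.482 and 0.315 CPM against 14.8, 10.4 and 4.90 CPM (-5.04 ± 0.63, adjusted p = 0.0147). Rdh7, a retinol dehydrogenase, was at 0.101, 0.965 and 0.315 CPM against 9.41, 8.94 and 6.12 CPM (-4.18 ± 0.66, adjusted p = 0.0312). For each of these 3 the GFP lines had 0.96 CPM or less. Without CDX2 line 1 the differences of Aadac and Rdh7 were -4.16 and -3.46, and without CDX2 line 2 that of Rdh7 was -5.37. Cyp2d10 was at 0.402, 0.482 and 0.315 CPM against 4.06, 7.47 and 7.07 CPM (-3.82 ± 0.51, adjusted p = 0.0179). Cyp2c29 was at 1.00, 0.362 and 0 CPM against 9.99, 6.00 and 1.496 CPM (-3.72 ± 0.63, adjusted p = 0.0346), and its difference was -4.40 without CDX2 line 1. Cytochrome P450 genes of these families have close paralogs, so their counts may include or lose shared reads.

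Tfr2, transferrin receptor 2, was at 0, 0.482 and 0 CPM in the CDX2 lines and 10.9, 10.5 and 5.71 CPM in the HNF4A lines (-5.86 ± 0.86, adjusted p = 0.0271). It rested on 4 reads in the CDX2 lines, and the difference was -4.98 without CDX2 line 1, -9.30 without CDX2 line 2 and -6.71 without HNF4A line 2. Serpinf2, which encodes the plasmin inhibitor alpha-2-antiplasmin, was at 0.101, 0.241 and 1.10 CPM against 8.59, 14.6 and 18.4 CPM (-5.00 ± 0.57, adjusted p = 0.0102). Both were at 0.533 CPM or less in the GFP lines, so again the HNF4A lines were the group that stood apart. A different order was seen for Itih2 and Meis1, where the GFP lines lay with the HNF4A lines. Itih2, an inter-alpha-trypsin inhibitor heavy chain, was at 0.402, 1.45 and 3.00 CPM in the CDX2 lines, 5.81, 21.4 and 52.5 CPM in the HNF4A lines and 21.1, 14.4 and 39.8 CPM in the GFP lines (-3.93 ± 0.57, adjusted p = 0.0308). Meis1, a TALE homeobox factor, was at 0, 1.93 and 0.788 CPM, 5.46, 11.9 and 21.1 CPM and 9.92, 17.0 and 24.6 CPM in the CDX2, HNF4A and GFP lines (-3.82 ± 0.60, adjusted p = 0.0329). Small intestine organoids had at most 0.11 CPM of Itih2 and Meis1. All 12 genes of this lower set lost their call in at least one of the 9 fits that left out a library, always including an HNF4A library, with adjusted p up to 0.234. All of these calls except those of Cps1 and Itih2 were lost without any one of the HNF4A lines. Cyp3a25 lost its call in 7 of the 9 fits, Cyp2c29 in 6 and Tfr2 in 5. For each of these 3, the losses included the fits without CDX2 line 1 or GFP line 2. The difference of Serpinf2 was -6.08 without CDX2 line 3 and that of Meis1 was -5.18 without CDX2 line 2, and Meis1 was not called with the 6 libraries alone (adjusted p = 0.078).

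**Figure D3:**
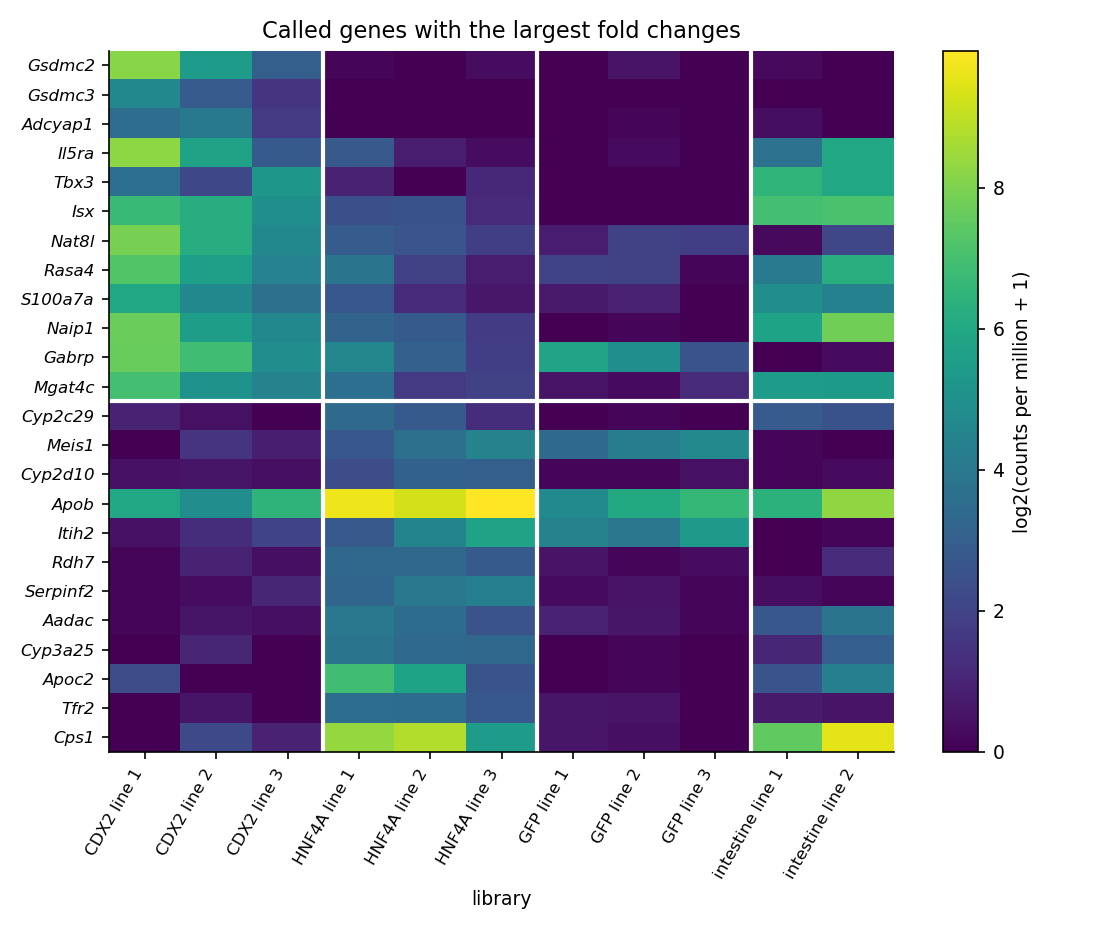
Heat map of log2(CPM + 1) for the 12 called genes of each direction with the largest fitted differences, in all 9 gastric line libraries and the 2 small intestine organoid libraries. Among gastric lines Cps1, Apoc2 and Tfr2 are brightest in the HNF4A columns, whereas Meis1 and Itih2 are dark in the CDX2 columns and brighter in both the HNF4A and GFP columns.

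Promoters of genes from these sets were searched for letters known to be bound by either factor, since both act on DNA. The CDX letters were GNNATAAA and the HNF4 letters CAAAGTNCA, searched on both strands in the 250 bases before each annotated start (RefSeq, GRCm38.p6). Promoters were in the table for 9 of the 12 higher and 11 of the 12 lower genes described above, and Mgat4c had a match farther from its start than the stretch shown. The 150 bases before the start are shown, 5′ to 3′ on the gene's strand, for the 4 genes with CDX letters in that window, which are S100a7a and Naip1, higher in the CDX2 lines, and Apoc2 and Cyp2c29, lower. Capitals mark the letters.
S100a7a, chr3:90654152-90654301, + strand: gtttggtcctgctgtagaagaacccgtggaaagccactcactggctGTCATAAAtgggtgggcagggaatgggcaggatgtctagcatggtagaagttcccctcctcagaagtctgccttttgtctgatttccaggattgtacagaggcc
Naip1, chr13:100452865-100453014, - strand: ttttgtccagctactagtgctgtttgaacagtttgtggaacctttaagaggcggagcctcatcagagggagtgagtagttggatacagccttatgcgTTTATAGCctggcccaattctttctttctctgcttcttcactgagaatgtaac
Apoc2, chr7:19677942-19678091, - strand: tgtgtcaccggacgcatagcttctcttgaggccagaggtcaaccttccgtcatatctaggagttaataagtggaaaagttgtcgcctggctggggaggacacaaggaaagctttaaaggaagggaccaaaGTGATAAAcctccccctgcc
Cyp2c29, chr19:39286935-39287084, + strand: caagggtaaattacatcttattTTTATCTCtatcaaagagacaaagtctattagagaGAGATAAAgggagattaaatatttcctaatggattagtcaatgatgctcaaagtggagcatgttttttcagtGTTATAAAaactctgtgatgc
The match began 104 bases before the start in S100a7a, 53 in Naip1 and 20 in Apoc2, and at 128, 93 and 21 bases in Cyp2c29. The CDX letters were in the promoters of 12.9% of 27025 genes with a promoter in the table and of 8.18% of 9800 tested genes. They were in 7 of 59 called genes higher in the CDX2 lines with a promoter (11.9%) and in 8 of 70 that were lower (11.4%), so the shares were close in both directions. The HNF4 letters were in 1.23% of tested genes, in 0 of the 59 and in 2 of the 70, Apol7a and Iyd, which are named after their values were seen. The letters overlap those of A/T-rich core promoter elements, and a match describes these letters only.

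Among transcription factors of the intestine and stomach, calls were few and included the targeted Cdx2. Of 19 tested intestinal factors, 2 were higher in the CDX2 lines (Cdx2 and Isx, above) and 1 was lower, where 1.38% of all tested genes were called. Their median log2 difference was -0.02, beside -0.002 for all tested genes. The lower one was Gata5, a zinc finger factor of the gut, at 101, 129 and 215 CPM in CDX2 lines 1 to 3 and 170, 182 and 330 CPM in HNF4A lines 1 to 3. These groups overlapped, each CDX2 line being below the HNF4A line of its number (-0.62 ± 0.11, adjusted p = 0.0404). GFP lines held more, at 236, 276 and 589 CPM, and small intestine organoids less than any gastric line, at 39.6 and 86.9 CPM. The Gata5 call was lost in 7 of the 9 fits that left out a library, and with the 6 libraries alone (adjusted p = 0.0711). Those 7 were the fits without any CDX2 or HNF4A library or GFP line 2 (adjusted p up to 0.206).

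Cdx1, the paralog of Cdx2, was at 23.7, 8.92 and 2.21 CPM in the CDX2 lines and 2.32, 6.23 and 0.272 CPM in the HNF4A lines, with no read in any GFP line. It was higher in each CDX2 line than in the HNF4A line of its number, but the difference of 2.07 ± 0.68 did not pass the test (adjusted p = 0.257). Vdr, the vitamin D receptor, was at 118, 9.89 and 19.9 CPM against 11.4, 2.94 and 6.94 CPM (2.40 ± 0.55, adjusted p = 0.0991). Prdm1, a repressor of the fetal gut, had a difference of 1.23 (adjusted p = 0.12) with no overlap between groups. Gata4 and Gata6 were at -0.67 (adjusted p = 0.2) and -0.42 (adjusted p = 0.0949), and Hnf4g at 0.73 (adjusted p = 0.269). Klf4 and Maf were at 0.64 and 0.94 and Ppara at -0.57, and none of these 3 had an adjusted p under 0.384. Elf3, Klf5 and Tcf7l2 had fitted differences between -0.10 and -0.02.

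None of 10 tested gastric factors was called, beside 1.38% of all tested genes. The median log2 difference of these factors was -0.19. Sox2, a foregut and stomach factor, was at 59.7, 72.1 and 17.7 CPM in the CDX2 lines and 49.4, 57.0 and 29.0 CPM in the HNF4A lines, a difference of 0.01 ± 0.22 (adjusted p = 0.991). Its GFP levels were 116, 89.9 and 43.0 CPM, higher for each line number than in both other kinds of line. Nkx6-3 differed by 0.10 ± 0.10 (adjusted p = 0.747), with 65.1 to 130 CPM against 66.7 to 110 CPM. Foxa2, a pioneer factor of the endoderm, was at 16.4, 26.3 and 31.7 CPM against 46.9, 62.9 and 42.9 CPM, without overlap, and narrowly missed the threshold (-1.06 ± 0.21, adjusted p = 0.0595). Onecut2 was at 24.6, 18.6 and 33.6 CPM against 110, 51.0 and 64.9 CPM, also without overlap (-1.58 ± 0.35, adjusted p = 0.0837). Its level was 13.2, 7.44 and 29.4 CPM in GFP lines and 63.0 and 229 CPM in small intestine organoids. Onecut2 was thus not particular to gastric lines, and the HNF4A lines were the gastric group that stood apart. Foxa3, Pdx1 and Foxq1 were at -0.53, -0.38 and -0.25, and Sox21, Foxa1 and Nkx6-2 between -0.13 and 0.14.

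The called members of the enterocyte surface lists were both lower in the CDX2 lines, where 0.732% of all tested genes were called lower. Of 15 tested genes of brush border structure and adhesion, 1 was lower in the CDX2 lines and 14 were not called. Their median was 0.13, with 9 differences positive and 6 negative. The lower one was Baiap2l2, a membrane-bending protein of microvilli, at 15.5, 25.8 and 9.78 CPM against 71.8, 77.8 and 28.4 CPM (-1.78 ± 0.22, adjusted p = 0.0147). Its groups did not overlap, and GFP lines had 41.9, 32.6 and 11.4 CPM. The list's most abundant member, the linker ezrin (Ezr), differed by 0.22 ± 0.13 (adjusted p = 0.538). Of 11 tested brush border hydrolases, 1 was lower in the CDX2 lines, and the median was -1.07. This was Dpp4, a dipeptidyl peptidase, at 0.301, 1.57 and 1.74 CPM against 7.32, 15.5 and 13.5 CPM (-3.44 ± 0.39, adjusted p = 0.0102), with 3.52, 8.18 and 4.78 CPM in GFP lines. Anpep, the most abundant, differed by -0.11 ± 0.57 (adjusted p = 0.96), ranging from 18.4 to 407 CPM within the CDX2 lines alone. Among 14 tested nutrient and ion transporters none was called. The iron reductase Cybrd1, the most abundant of these, was at 454, 630 and 1006 CPM against 1556, 1997 and 1358 CPM, without overlap (-1.27 ± 0.37, adjusted p = 0.173). The calls of Baiap2l2 and Dpp4 were both lost without any one HNF4A library (adjusted p up to 0.12).

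In the lists of absorptive and liver-type metabolism, the called members were all lower in the CDX2 lines. This held for 2 of 16 tested genes of lipid absorption (Apob and Apoc2; median -0.78), 1 of 10 urea cycle, amino acid and gluconeogenic genes (Cps1; median -1.08), 2 of 26 bile acid and xenobiotic genes (median -0.59), 1 of 13 hepatocyte plasma protein genes (median -0.66) and 1 of 15 genes of fatty acid oxidation (median -0.01), where 0.732% of all tested genes were called lower. The medians of the first 3 lists stayed below 0 under all 20 alternative settings, whereas that of the plasma proteins ranged from -2.23 to 0.49. Ttr, the thyroid hormone carrier transthyretin, was the called plasma protein gene. It was at 6.83, 7.00 and 3.79 CPM in the CDX2 lines and 25.8, 20.4 and 22.4 CPM in the HNF4A lines (-2.03 ± 0.37, adjusted p = 0.0455), with 0.735 to 3.51 CPM in GFP lines. Trf, transferrin, was the most abundant of that list and was not called: 102, 160 and 616 CPM against 1682, 1956 and 1686 CPM, without overlap (-2.78 ± 0.78, adjusted p = 0.158). GFP lines held 5926, 3096 and 1837 CPM of Trf, above the HNF4A line of each number, although GFP line 3 was below HNF4A line 2.

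Besides Cyp3a25, the called gene of the xenobiotic list was the carboxylesterase Ces2e. It varied widely between lines in both groups, with 15.7, 3.38 and 0.946 CPM in CDX2 lines 1, 2 and 3 and 42.4, 20.8 and 3.67 CPM in HNF4A lines 1, 2 and 3. The groups overlapped, and within each number the CDX2 line was lower (-1.96 ± 0.28, adjusted p = 0.0227). Ugt2b34, the most abundant gene of that list, differed by 0.01 ± 0.50 (adjusted p = 0.994). Outside the lists, the UDP-glucuronosyltransferase gene Ugt1a7c was called higher in the CDX2 lines (2.10 ± 0.21, adjusted p = 0.00856). It is named after its values were seen, and its call was lost without CDX2 line 1 or HNF4A line 1 or 2 (adjusted p up to 0.107). Ehhadh, a peroxisomal enzyme of fatty acid oxidation, was at 18.3, 19.1 and 14.98 CPM against 38.1, 37.1 and 26.2 CPM (-0.95 ± 0.15, adjusted p = 0.0312). The calls of Ttr, Ces2e and Ehhadh were lost without any one HNF4A library, those of Ttr and Ehhadh also without CDX2 line 1 or 2, that of Ttr without CDX2 line 3 and that of Ehhadh without GFP line 2 (adjusted p up to 0.208) or with the 6 libraries alone (0.0521).

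Secretory lineage lists held 1 call each way, where 0.643% of all tested genes were called higher and 0.732% lower. Of 12 tested goblet cell genes 1 was higher in the CDX2 lines, with a median of 0.49. Fcgbp, a large protein of intestinal mucus, was at 205, 101 and 54.4 CPM in CDX2 lines 1 to 3 and 32.3, 13.9 and 20.1 CPM in HNF4A lines 1 to 3. No library overlapped (2.34 ± 0.31, adjusted p = 0.0234), and the call was lost without CDX2 line 1 or HNF4A line 1 or 2 (adjusted p up to 0.134). GFP lines had 3.43 to 4.78 CPM of Fcgbp, below both kinds of line. Agr2, the most abundant goblet gene, differed by -0.19 ± 0.33 (adjusted p = 0.878). Of 8 tested Paneth cell genes 1 was lower, with a median of -0.89. Lyz1, the Paneth cell lysozyme, was at 2.51, 26.4 and 0.788 CPM against 44.1, 132 and 26.9 CPM (-3.45 ± 0.48, adjusted p = 0.0305). GFP lines had at most 1.70 CPM, and small intestine organoids 29.7 and 86.3 CPM. Lyz1 has a close paralog in Lyz2, so shared reads may be divided between them, and its call was lost without CDX2 line 1, HNF4A line 1 or 3, or GFP line 2 (adjusted p up to 0.133), and with the 6 libraries alone (0.0593). Its difference was -4.32 without CDX2 line 2 and -4.50 without HNF4A line 2.

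None of 10 tested enteroendocrine genes was called, beside 1.38% of all tested genes, although 9 of the 10 had a positive difference. The list median was 1.40. Chromogranin B (Chgb), the most abundant, was at 50.9, 128 and 39.1 CPM against 8.59, 11.9 and 56.9 CPM, so that lines 1 and 2 were higher with CDX2 and line 3 was lower (1.75 ± 0.80, adjusted p = 0.405). None of 6 tuft cell genes was called. Dclk1, the most abundant, was at 3.02, 21.7 and 36.7 CPM against 19.3, 43.4 and 158 CPM (-1.77 ± 0.40, adjusted p = 0.0949). Sox9, the most abundant of the Paneth cell list, differed by -0.44 ± 0.17 (adjusted p = 0.293).

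Stomach mucous genes had mostly negative differences, with few calls, where 0.732% of all tested genes were called lower. All 13 tested pit mucous genes had a negative difference, with a median of -1.32 (-1.52 to -0.42 over the alternative settings), and 1 was called. That was Muc1 (chr3:89229056-89233381), a membrane mucin, at 144, 352 and 217 CPM in CDX2 lines 1 to 3 and 392, 627 and 900 CPM in HNF4A lines 1 to 3. The groups did not overlap (-1.44 ± 0.22, adjusted p = 0.0324), GFP lines held 623, 889 and 923 CPM, and small intestine organoids at most 0.11 CPM. The call was lost without CDX2 line 1, any HNF4A library or GFP line 2 (adjusted p up to 0.131), and with the 6 libraries alone (0.067). Gkn3, gastrokine 3, was at 186, 1022 and 1582 CPM against 588, 1740 and 4702 CPM and just missed the threshold (-1.32 ± 0.24, adjusted p = 0.0501). Its GFP levels of 1477, 3551 and 6619 CPM were the highest for each line number.

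None of 8 tested gland genes was called (median -1.12), beside 1.38% of all tested genes. The gland mucin Muc6 was at 10.2, 90.3 and 886 CPM in CDX2 lines 1 to 3 and 228, 1842 and 4270 CPM in HNF4A lines 1 to 3, and each pair of lines differed in the same direction (-3.42 ± 0.85, adjusted p = 0.12). GFP lines held 2003, 3771 and 6919 CPM, above the HNF4A line of each number. Of 15 tested secreted innate defence genes 1 was called lower (median -0.72), beside 0.732% of all tested genes, and 13 of the 15 had a negative difference. Bpifb1, a secreted protein of the bactericidal permeability-increasing family, was at 1.61, 3.14 and 0.946 CPM against 13.3, 53.6 and 9.11 CPM (-3.54 ± 0.35, adjusted p = 0.00856). Its GFP levels of 84.6, 179 and 86.8 CPM were above every other library, and small intestine organoids had no read. This gene was called in all 9 fits that left out a library. Pigr, the immunoglobulin transporter and the most abundant of the list, differed by -0.05 ± 0.24 (adjusted p = 0.96).

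Among surface glycan genes, B4galnt2 (chr11:95863559-95914960) was the 1 gene also called without the block. It encodes the enzyme that makes the Sd(a) blood group antigen of the gut surface. Its level was 314, 254 and 269 CPM in CDX2 lines 1 to 3 and 49.0, 42.3 and 63.8 CPM in HNF4A lines 1 to 3. The difference was 2.45 ± 0.18 on the log2 scale (adjusted p = 0.002), and the call held in all 9 fits that left out a library. Of the 20 alternative settings 19 called it, and the call was lost without line 2 of all 3 groups (adjusted p = 0.0817). GFP lines had 1.39, 2.34 and 2.94 CPM and small intestine organoids 410 and 508 CPM, so both kinds of line were above GFP and the CDX2 lines were nearer the intestinal level. Of 18 tested terminal glycosyltransferases, 2 were called higher in the CDX2 lines (B4galnt2 and Mgat4c), beside 0.643% of all tested genes. The median of the 18 was 0.11. Mgat4a, the most abundant, differed by 0.13 ± 0.13 (adjusted p = 0.755).

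Galectins, which bind such glycans, were called in both directions, 1 of 6 tested each way. Of all tested genes, 0.643% were called higher and 0.732% lower. Lgals3 (chr14:47373860-47386167) was at 665, 710 and 148 CPM in CDX2 lines 1 to 3 and 250, 188 and 33.6 CPM in HNF4A lines 1 to 3. CDX2 line 3 was below HNF4A lines 1 and 2, but every pair of lines differed the same way (1.80 ± 0.16, adjusted p = 0.00477). GFP lines, at 188, 191 and 43.1 CPM, lay near the HNF4A lines. Lgals9 was at 114, 99.98 and 119 CPM against 219, 208 and 186 CPM without overlap (-0.89 ± 0.11, adjusted p = 0.0147), and its GFP levels of 126 to 148 CPM lay between. Lgals3 lost its call without HNF4A line 2 (adjusted p = 0.0658) and Lgals9 without HNF4A line 1 or 2 (adjusted p up to 0.12).

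**Figure D4:**
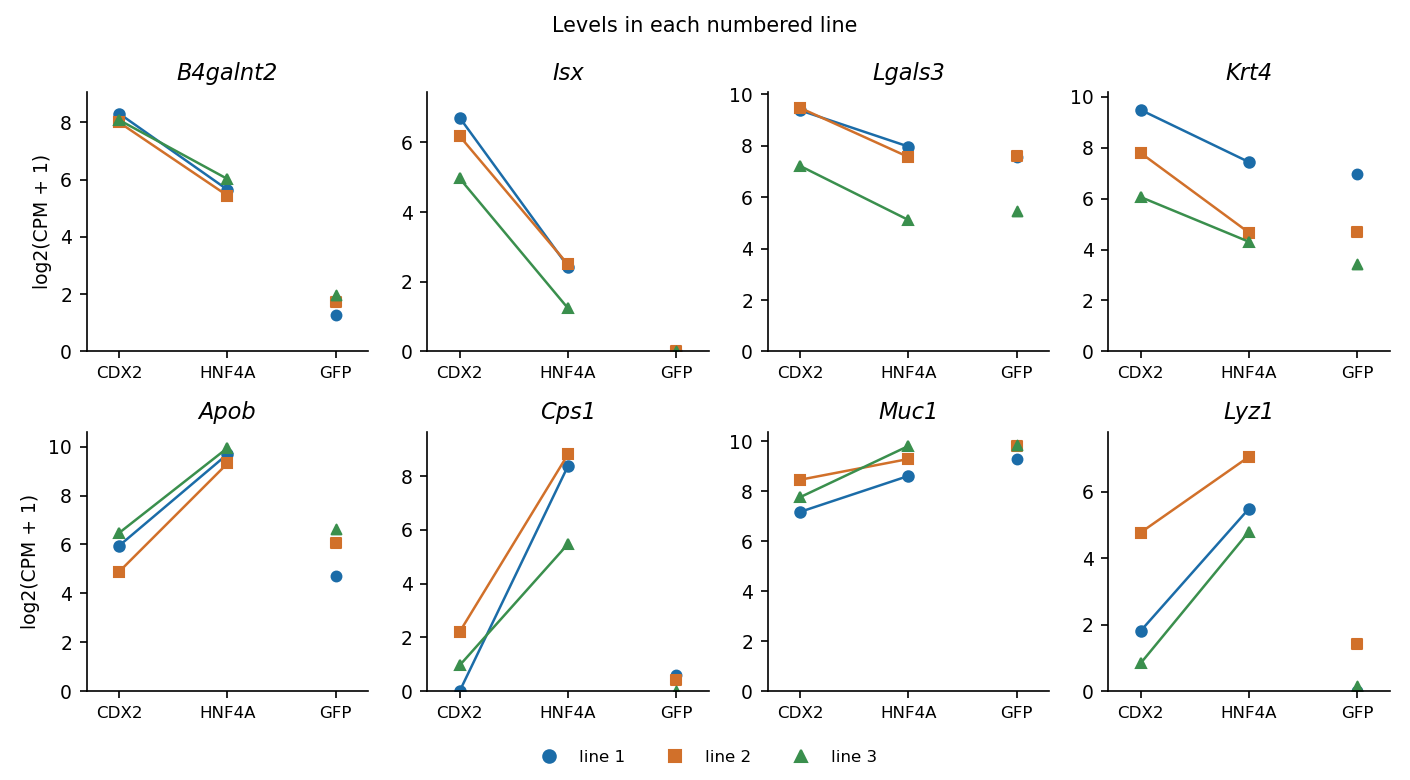
Levels of 8 genes as log2(CPM + 1), with lines joining the CDX2 and HNF4A libraries of the same number and separate points for the GFP library of that number. In all 8 panels the 3 lines slope the same way; for Lgals3 and Krt4 the groups overlap while the CDX2 library of each number is the higher one.

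Further lists held 1 or 2 calls each, all higher in the CDX2 lines, where 0.643% of all tested genes were called higher. Of 4 tested genes of guanylin receptor signalling, Cftr, the chloride channel downstream of this receptor, was higher in the CDX2 lines at 106, 70.3 and 33.9 CPM against 59.9, 47.6 and 15.6 CPM (0.82 ± 0.13, adjusted p = 0.0308), with GFP lines at 60.05, 41.4 and 17.5 CPM. Of 13 tested fetal and regenerative genes 2 were higher and none lower, with a median of 0.83. Ctgf, a secreted matricellular protein, was at 654, 748 and 1718 CPM against 328, 409 and 1113 CPM (0.83 ± 0.11, adjusted p = 0.0198). Ereg, the growth factor epiregulin, was at 63.6, 20.3 and 4.10 CPM against 24.9, 6.00 and 0.544 CPM (1.75 ± 0.27, adjusted p = 0.0306). In each of these 3 genes the groups overlapped while every numbered pair differed in the same direction. Clu, the most abundant of the fetal list, had the opposite sign (-0.69 ± 0.16, adjusted p = 0.0826). Of 22 tested interferon and antigen presentation genes, the regulator Irf7 alone was called, at 55.4, 12.8 and 12.3 CPM against 26.9, 4.87 and 4.08 CPM (1.32 ± 0.19, adjusted p = 0.0234), and H2-K1, the most abundant, differed by 0.30 ± 0.12 (adjusted p = 0.293). All 4 calls were lost without any one HNF4A library. Cftr also lost its call without CDX2 line 1 or GFP line 2, Ereg without CDX2 line 1 or 2 or GFP line 2, and Irf7 without CDX2 line 2 (adjusted p up to 0.185). With the 6 libraries alone Cftr and Ctgf were not called (adjusted p = 0.0687 and 0.0593).

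The lists of stem cell and Wnt target, proliferation, cholesterol synthesis, and claudin and tight junction genes held no call, beside 1.38% of all tested genes. Their medians were -0.03 (16 tested), -0.23 (20 tested), -0.02 (18 tested) and 0.08 (15 tested). The most abundant stem cell, proliferation and tight junction genes were Prom1 (-0.58 ± 0.15, adjusted p = 0.105), Mki67 (-0.38 ± 0.21, adjusted p = 0.5) and the stomach claudin Cldn18 (-1.06 ± 0.37, adjusted p = 0.258). All 20 proliferation genes had a small negative difference, -0.69 to -0.07, and their median ranged from -0.50 to 0.03 over the alternative settings. Prom1, a membrane protein of stem and gland cells, was at 1165, 1364 and 1730 CPM in the CDX2 lines and 1649, 2302 and 2450 CPM in the HNF4A lines. Outside the lists, the R-spondin receptor gene Lgr4 (-0.79) and Msi1 (-2.47) were called lower in the CDX2 lines. Both are named after their values were seen. Their calls were lost in 5 and 6 of the 9 fits that left out 1 library.

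**Figure D5:**
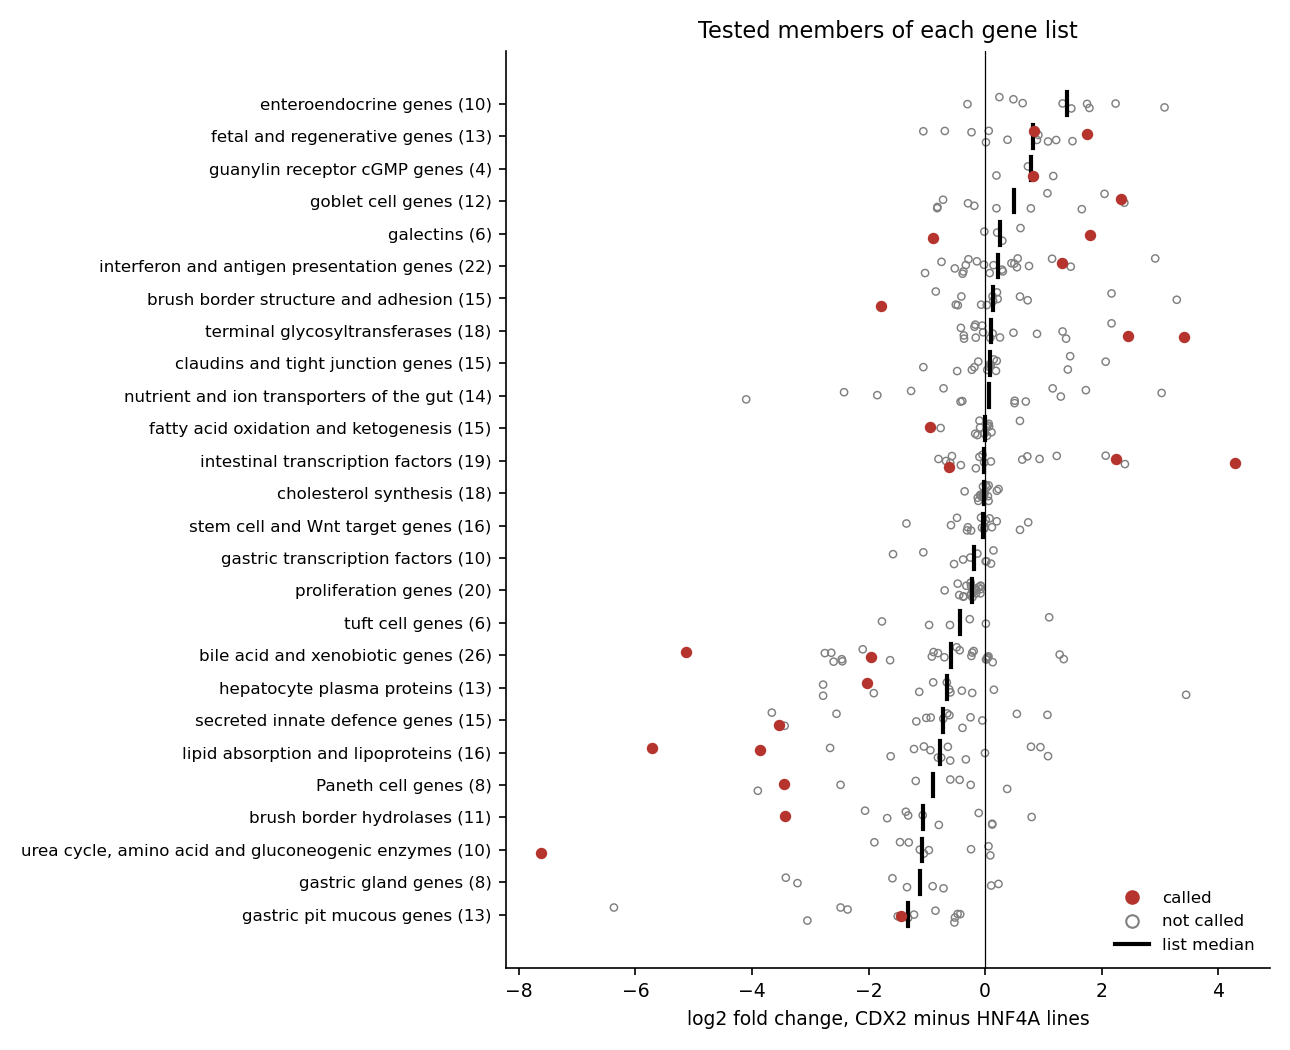
Fitted log2 difference (CDX2 minus HNF4A lines) of every tested member of each gene list, with called members filled, the list median as a bar and the number tested in brackets. The lists of pit mucous, gland, hydrolase and urea cycle, amino acid and gluconeogenic genes have their medians below -1, and the enteroendocrine list has its median at 1.40 with no called member.

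Markers of fibroblast, endothelial and immune cells were low. Fibroblast markers summed to 13.0 to 18.8 CPM in the CDX2 lines and 12.1 to 42.6 CPM in the HNF4A lines, endothelial markers to 22.3 to 41.5 and 15.2 to 29.2 CPM, and immune markers to 105 to 114 and 79.6 to 153 CPM. None of 4, 4 and 3 tested markers of these types was called, and Lum and Emr1 had no read in any gastric line. Their most abundant members, Tagln, Esam and Cd14, differed by -0.27, 0.64 and -0.22, each with an adjusted p of 0.382 or more. Squamous markers were higher, summing to 245 to 924 CPM in the CDX2 lines, 74.8 to 329 CPM in the HNF4A lines and 81.8 to 260 CPM in the GFP lines. Krt4, a keratin of squamous epithelia, was at 715, 221 and 65.8 CPM in CDX2 lines 1 to 3 and 172, 24.3 and 18.8 CPM in HNF4A lines 1 to 3 (2.35 ± 0.25, adjusted p = 0.0102). It was the 1 called squamous marker of 3 tested, beside 0.643% of all tested genes called higher. Small intestine organoids held 136 and 407 CPM of Krt4. The other 7 of the 10 squamous markers, Krt5, Krt14 and Trp63 among them, were too low to be tested, and Sprr3 had no read in the gastric lines. Krt20, a keratin of mature gut epithelium, was lower in the CDX2 lines at 4.32, 1.93 and 0.158 CPM against 27.1, 9.28 and 0.952 CPM (-2.47 ± 0.33, adjusted p = 0.0187), while Krt8 differed by 0.39 ± 0.20 (adjusted p = 0.452). Krt4 lost its call without HNF4A line 1 (adjusted p = 0.0595) and Krt20 without CDX2 line 1 or any HNF4A library (adjusted p up to 0.195). The part of these cell types in the other results was not tested.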

How the data were processed

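The deposited values were raw read counts per gene symbol (19733 symbols), a STAR count table per the file name, and the submitters' processing notes list STAR, Bowtie2, Cell Ranger, mm10 and hg19 without roles. Which program assigned reads to genes, and with which strand setting or gene models, is not stated in those notes or labels, so reads of overlapping or antisense genes cannot be told apart. The test was edgeR's, version 4.0.16 under R 4.3.3 (TMM, filterByExpr by group with a minimum count of 10 and total of 15, robust quasi-likelihood fit, two-sided) on 9 gastric libraries with group and line number as terms. Benjamini-Hochberg adjustment ran over all 12289 tested genes, and a call is an adjusted p under 0.05. The SE is the log2 difference divided by the square root of F. Printed CPM use TMM factors over 11 libraries. Line number was a block because the libraries were taken as paired by it. Same-numbered libraries correlated over 0.1 in all 9 pairs, as did HNF4A line 1 with GFP line 2 (0.112). Each library correlated best with its own number. Library pairs within a group differed beyond sampling noise (chi-square per degree of freedom 29.49 or more). The fitting code was tested on simulated data.

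The genes named were the targets, the 12 largest called and non-overlapping genes a direction with a mean of at least 5 CPM in the higher group, the called and the most abundant member of each of 31 lists, and all tested intestinal and gastric factors; some items under this rule are not reported here. Members and lists were chosen with earlier results of these data known, so list counts are descriptions. Intervals and floors (3 reads) cover counting error only. The alternatives were no block, other sets of libraries, RLE size factors, DESeq2 1.42.0, limma-voom 3.58.1, 2 other filters, and leaving out each library or line. Positions and promoters are from RefSeq (GRCm38.p6), where 19588 symbols matched; promoters on chromosome 18 are not shown. Other assays of the series were not analysed here.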

Additional observations from a re-analysis of the deposited data

How the results depend on the processing

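The block, the tool and single libraries moved the counts, while RLE size factors and either other filter kept all counts within 1.5 times. Against 169 calls in all, 79 higher and 90 lower, with 26 in the lists, the fit with no replicate block on 9 gastric libraries gave 1, 1, 0 and 1. With no replicate block and 11 libraries it gave 3, 2, 1 and 1. DESeq2 gave 655, 337, 318 and 83 calls, holding 167 of the 169, and limma-voom gave 304, 148, 156 and 54, holding 163. Of 45 named genes not called in the main fit, DESeq2 called 13 and limma-voom 8. Those 8 were Vdr, Foxa2, Onecut2, Trf, Muc6, Gkn3, Dclk1 and Clu, and DESeq2 called each of them too. The 6 CDX2 and HNF4A libraries alone, with the replicate block, gave 56 lower calls. Leaving out 1 library gave 11 to 406 calls in all, 7 to 183 higher, 4 to 223 lower and 5 to 46 in the lists. Without line 1 of all 3 groups the counts were 76, 30, 46 and 17, and without line 2 they were 4, 4, 0 and 1. Without line 3 the lists held 40. No gene called in the main fit and named here changed sign in any setting. Sign changes were confined to 13 named genes that were not called, with adjusted p of 0.797 or more. Over the fits that left out 1 library, their log2 differences ranged as follows: Elf3 -0.22 to 0.021, Anpep -0.57 to 0.45, Ugt2b34 -0.82 to 0.47, Agr2 -0.53 to 0.28, Pigr -0.26 to 0.29, Tagln -0.61 to 0.28, Klf5 -0.11 to 0.11, Tcf7l2 -0.18 to 0.0865, Sox2 -0.23 to 0.25, Sox21 -0.32 to 0.10, Nkx6-2 -0.12 to 0.41 and Foxa1 -0.0943 to 0.21. Without the replicate block Anpep was at 0.10 with either set of libraries, Ugt2b34 at -0.26 with both, and Foxa1 at -0.00994 and -0.00943 with 9 and 11. Ugt2b34 was at -0.13 with 6 libraries and -0.0735 with limma-voom. Without line 1 of all groups, Elf3 was at 0.038, Anpep at 0.29, Klf5 at 0.023, Sox2 at -0.10 and Foxa1 at -0.0910. Without line 2, Tcf7l2 was at 0.11, Ppara at 0.059, Sox2 at -0.20, Nkx6-2 at -0.0854 and Foxa1 at -0.012. Without line 3, Ugt2b34 was at -0.72, Agr2 at 0.38, Pigr at 0.23, Tagln at 0.36, Klf5 at 0.038 and Sox21 at 0.17. The cause was not tested. Depth limits low genes: 3 reads equal 0.302 to 0.473 CPM in the 6 libraries. A fit that leaves out 1 library still holds 2 of its group.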

Other observations

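Of the 169 called genes, 143 were in none of the lists, and a few with higher levels or steady calls are given here, chosen after their values were seen. Cbr2, a carbonyl reductase, was at 130.2, 169 and 2.21 CPM in CDX2 lines 1 to 3 and 4.53, 2.49 and 0 CPM in HNF4A lines 1 to 3, so CDX2 line 3 was below HNF4A lines 1 and 2 (log2 difference 5.42 ± 0.29, adjusted p = 0.000702, edgeR). Its GFP levels were 8.43, 9.35 and 0.122 CPM, above the HNF4A line of each number. Chdh, choline dehydrogenase, was at 44.1, 58.5 and 67.0 CPM against 110.4, 149 and 164 CPM (-1.32 ± 0.11, adjusted p = 0.0031), with GFP lines at 112, 117 and 154 CPM and small intestine organoids at 98.4 and 133 CPM. The 3 CDX2 libraries were below all the others. Clps, a colipase of fat digestion, was at 0.905, 6.39 and 11.8 CPM against 4.06, 29.5 and 89.5 CPM (-2.50 ± 0.22, adjusted p = 0.00506), and its groups overlapped.

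Complement genes differed in how GFP lines lay beside them. Cfb, complement factor B, was at 42.8, 18.4 and 33.6 CPM in the CDX2 lines, 168, 159 and 206 CPM in the HNF4A lines and 13.0, 18.0 and 19.5 CPM in the GFP lines (-2.51 ± 0.27, adjusted p = 0.0115). Cfi, complement factor I, was at 19.6, 48.0 and 127 CPM, 121, 288 and 553 CPM and 259, 271 and 471 CPM (-2.41 ± 0.33, adjusted p = 0.0305). Cfb was therefore highest in the HNF4A lines, whereas for Cfi the GFP lines lay with the HNF4A lines. Both calls were lost without any one HNF4A library, and that of Cfi also without CDX2 line 1 or GFP line 2 (adjusted p up to 0.161).

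Membrane and enzyme genes were among those higher in the CDX2 lines. Emp1, an epithelial membrane protein, was at 1594, 531 and 170 CPM against 507, 151 and 26.7 CPM (2.04 ± 0.24, adjusted p = 0.0147), and GFP lines had 124, 63.0 and 8.94 CPM. Ceacam1, a cell adhesion molecule, was at 888, 510.4 and 269 CPM against 308, 177 and 74.0 CPM (1.62 ± 0.24, adjusted p = 0.0301), with 33.2 to 58.8 CPM in GFP lines. For both genes the order was GFP, HNF4A and CDX2 lines within each line number. Maoa, monoamine oxidase A, was at 82.4, 34.5 and 20.8 CPM against 6.85, 3.62 and 4.22 CPM without overlap (3.12 ± 0.35, adjusted p = 0.0115), and small intestine organoids had 175 and 67.1 CPM. Emp1 lost its call without HNF4A line 2 or 3, Ceacam1 without CDX2 line 1, any HNF4A library or GFP line 2, and Maoa without any one HNF4A library (adjusted p up to 0.172).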
